A study of Homo sapiens with 2 samples.

Results

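The genes described here are 10 components of the desmosome, DSP, PKP1, PKP2, PKP3, PKP4, JUP, DSG2, DSG3, DSC2 and DSC3. They were chosen by name, but with earlier results of these data known. They were measured in GFP-SAS cells, a cell line from a squamous carcinoma of the tongue that carries green fluorescent protein, on 2 arrays. On the first, cells had received an antisense oligonucleotide of LNA and DNA directed at miR-361-3p (the anti-miR array), and on the second, an oligonucleotide with no target (the control array). Doses and times were equal, 25 nM for 24 h, and each group held 1 array, so that no replicate error or p-value can be given. The members had 28 probe sets of the 45253 assigned to a single gene symbol, and were 10 of the 18239 genes these represent. None of the probe sets assigned to several symbols named a member. Probe sets below the array median on both arrays were left out, which kept 20 of the 28 and 9 of the 10 genes, all but DSC3.

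The desmosome is a spot-like junction that ties the keratin filaments of neighbouring epithelial cells together. Desmogleins (DSG) and desmocollins (DSC) are cadherins that bind their partners on the next cell. Inside the cell their tails bind plakoglobin (JUP) and the plakophilins (PKP), which recruit desmoplakin (DSP), and desmoplakin holds the keratins. Stratified squamous epithelia such as that of the tongue are rich in desmosomes, and their loss of adhesion underlies blistering diseases such as pemphigus.

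The microRNA against which the oligonucleotide was directed is shown because it defines the comparison. Its mature sequence in RefSeq (GRCh38.p14, chrX:85903641-85903663, minus strand) is given 5′ to 3′, with the seed, bases 2 to 8, in capitals.
hsa-miR-361-3p: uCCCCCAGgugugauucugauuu

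Each value is on the log2 scale and comes from RMA, which corrects background, brings arrays to a shared distribution and condenses the probes of one probe set. A difference is anti-miR minus control, and a gene value is the mean over the probe sets kept for that gene. The array medians were 4.64 on the anti-miR array, against 4.63 on the control array. The 23 nonspecific control probe sets, which match no human transcript, reached 7.16 on the anti-miR array, against 6.87 on the control array, and a value below these may be background. The poly-A control probe sets, which read transcripts added before labelling, differed by 0.32 ± 0.19 (SD over 12 probe sets). Of 8 epithelial markers, 4 were measured, and the gene values of EPCAM, CDH1, KRT5 and SFN all lay above the nonspecific range on both arrays. A further CDH1 probe set, left out as dim, had 3.99 on the anti-miR array, against 3.88 on the control array. KRT14 (3.87 on the anti-miR array, 3.63 on the control array) was dim, and KRT6A, KRT17 and TP63 were not analysed here. No fibroblast or leukocyte marker reached an array median, and the measured markers of endothelium, striated muscle and melanocytes lay below the nonspecific upper end, at 5.67 or less.

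Of the 9 measured members, 3 were at least 1.5-fold lower on the anti-miR array (PKP4, DSG2 and PKP2), 1 was at least 1.5-fold higher (PKP1), and 5 lay within 1.5-fold. The increase of PKP1 rests on 1 probe set within the nonspecific range that passed the filter through its anti-miR value alone. Over all 11272 measured genes, 14.2% passed 1.5-fold downward and 8.23% upward. The 3 lower members are 33.3% of those measured. With so few genes and no replicates this share is a description. At 2-fold, 1 member was lower (PKP4) and 0 were higher, against 6.98% and 1.23% of all measured genes. With no filter on dim probe sets, 3 of the 10 members were lower and 0 higher at 1.5-fold, against 7.37% and 4.4% of 18239 genes. The median difference over the members was 0.06, against 0.13 over all measured genes, while single members ranged from -1.36 to 0.84. The spread between members (SD 0.70 over 9 genes) was larger than that between probe sets of one gene, which had a pooled SD of 0.29 over the 7 members with at least 2 retained probe sets. The same held over all measured genes, with an SD of 0.58 between genes and a pooled SD of 0.29 between probe sets. The spread between probe sets is a technical spread within the arrays and holds no variation between cultures. In bulk RNA, fewer cells with a transcript and less of it per cell cannot be told apart.

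**Figure D1:**
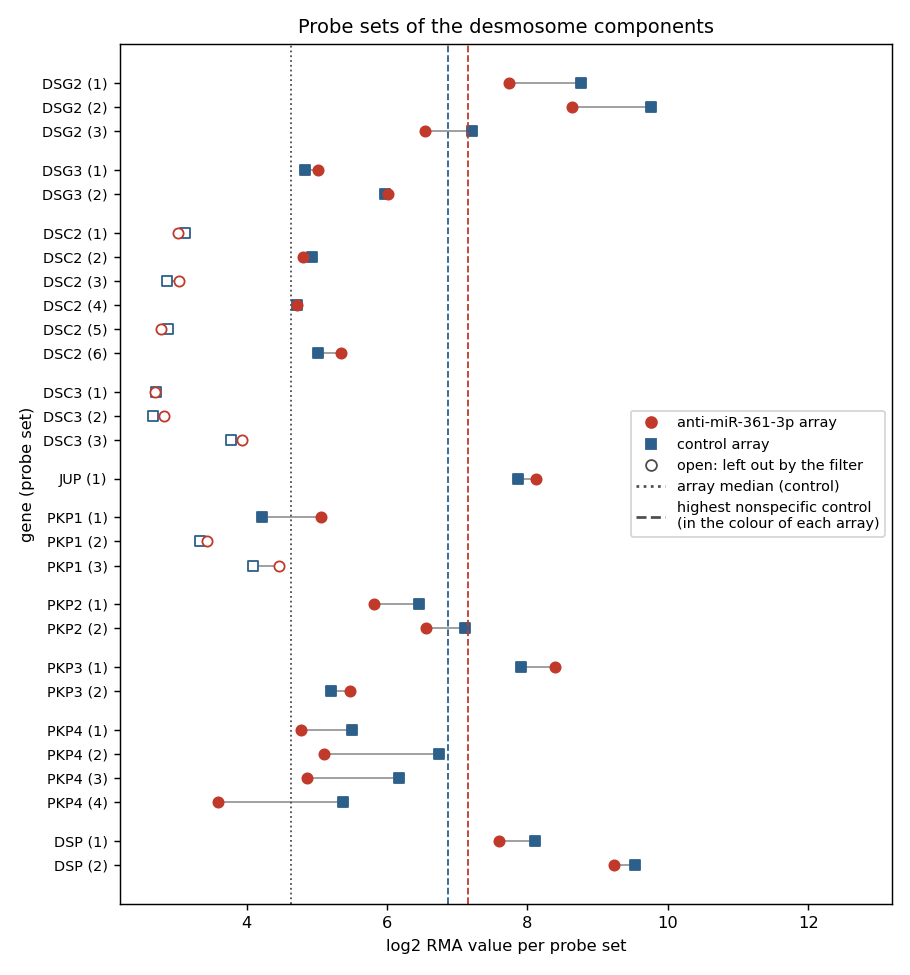
Log2 RMA value of each of the 28 probe sets of the 10 desmosome genes (rows) on the anti-miR array (red circles) and the control array (blue squares), with open symbols for the 8 probe sets left out by the filter. All probe sets of DSG2, PKP2, PKP4 and DSP lie lower on the anti-miR array, and all those of DSG3, JUP, PKP1 and PKP3 lie higher on it. Dashed lines mark the highest nonspecific control probe set, at 7.16 on the anti-miR array, against 6.87 on the control array.

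Among the desmogleins, DSG2 and DSG3 differed. DSG2 is the widely expressed desmoglein, found in simple epithelia, in heart and in many carcinomas. Its 3 probe sets had 7.74, 8.64 and 6.53 on the anti-miR array, against 8.77, 9.76 and 7.21 on the control array. All were lower on the anti-miR array, by 1.60-fold to 2.18-fold. The gene value of DSG2 was 7.64 on the anti-miR array, against 8.58 on the control array, which differ by -0.94 ± 0.24 in log2 (SD over 3 probe sets), or 1.93-fold lower. DSG2 was the member past 1.5-fold with the clearest signal: its 2 brighter probe sets lay above the nonspecific range on both arrays, and the dimmest did so on the control array alone. By size of decrease it ranked 868 of 11272 genes. It stayed past 1.5-fold under all 10 alternative settings that kept that threshold, between -1.13 and -0.85. These settings are not separate checks. Having no filter, either stricter filter or no _x_at probe sets kept the same 3 DSG2 probe sets and so repeated -0.94.

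DSG3, the desmoglein of the lower layers of squamous epithelium and the main autoantigen of pemphigus vulgaris, had 5.02 and 6.02 on the anti-miR array, against 4.84 and 5.97 on the control array. The difference was 0.11 ± 0.10 (SD over 2 probe sets), near that of the median gene. The probe sets of DSG2 (-1.13 to -0.67) did not overlap those of DSG3 (0.04 to 0.18), and the gene differences lay 1.06 apart. How often this holds for other pairs of genes was not counted. Both probe sets of DSG3 lay within the nonspecific range, so its difference is not an exact size.

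The desmocollins gave weak signals. DSC2, the widely expressed desmocollin, had 3 of its 6 probe sets retained, with 4.80, 4.71 and 5.34 on the anti-miR array, against 4.93, 4.72 and 5.01 on the control array. The third was higher and the other 2 were lower on the anti-miR array, and the gene value differed by 0.06 ± 0.24 (SD over 3 probe sets). DSC3, a desmocollin of the lower squamous layers, had 2.69, 2.82 and 3.94 on the anti-miR array, against 2.70, 2.67 and 3.77 on the control array. All 3 lay below both array medians, so DSC3 was not measured here, and the largest of its probe set differences was 0.16.

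Human genes for the desmosomal cadherins lie in one cluster on chromosome 18 in RefSeq, in the order DSC3, DSC2, DSC1, DSG1, DSG4, DSG3 and DSG2. Their differences were not alike along this order. DSC1, DSG1 and DSG4, cadherins of the upper epidermal layers or of hair, were dim on both arrays, with no probe set above 4.07 on the anti-miR array or 3.97 on the control array. DSG2, at the end of the cluster, was its only gene past 1.5-fold among the 3 that were measured (DSC2, DSG3 and DSG2). The nearest measured gene beyond DSC3 was CDH2, which encodes N-cadherin, at 6.18 on the anti-miR array, against 6.997 on the control array. It was 1.76-fold lower, with -0.82 ± 0.25 in log2 (SD over 2 probe sets). Past CDH2, KCTD1 was 1.66-fold lower (1 probe set). The gene value of CDH2 lay within the nonspecific range on the anti-miR array alone, and that of KCTD1 on both arrays. On the side of DSG2, B4GALT6, a galactosyltransferase gene, differed by -0.47 ± 0.19 (SD over 2 probe sets) and SLC25A52 by -0.14. The gene values of B4GALT6 and SLC25A52 also lay within the nonspecific range on both arrays.

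**Figure D2:**
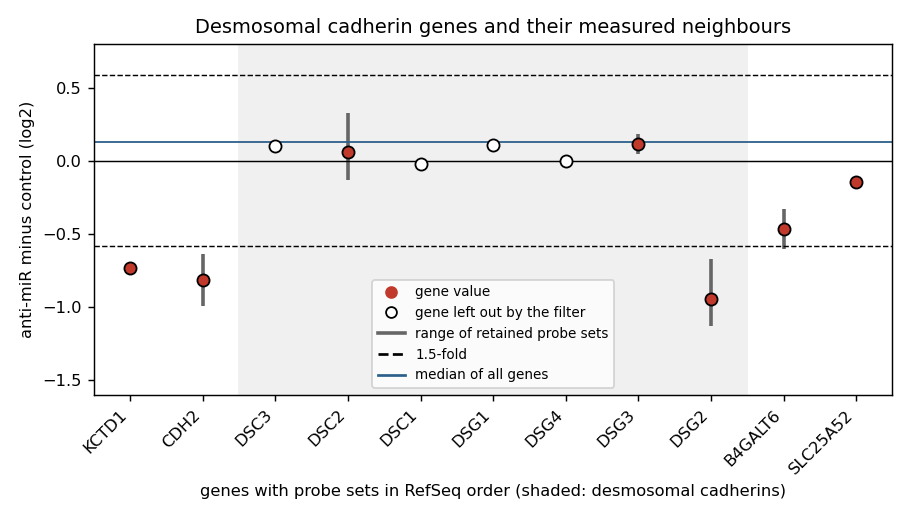
Difference of each desmosomal cadherin gene and of the nearest 2 measured genes on either side, anti-miR minus control on the log2 scale, in RefSeq order along chromosome 18. Filled points are gene values with the range of their retained probe sets as bars, and open points are genes whose probe sets were all left out by the filter. DSG2 (-0.94) lies below the 1.5-fold line, next to DSG3 (0.11), and CDH2 and KCTD1 at the other end lie below it too.

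The promoters of the neighbours DSG2 and DSG3 are shown because these genes, of one family and one cluster, had separate differences. Each runs from 250 bases before to 50 bases after the gene's start in RefSeq (GRCh38.p14, plus strand), at chr18:31497927-31498226 for DSG2 and chr18:31447491-31447790 for DSG3. Capitals mark the letters GGGCGG, the core of the GC box bound by SP1-family factors.
DSG2: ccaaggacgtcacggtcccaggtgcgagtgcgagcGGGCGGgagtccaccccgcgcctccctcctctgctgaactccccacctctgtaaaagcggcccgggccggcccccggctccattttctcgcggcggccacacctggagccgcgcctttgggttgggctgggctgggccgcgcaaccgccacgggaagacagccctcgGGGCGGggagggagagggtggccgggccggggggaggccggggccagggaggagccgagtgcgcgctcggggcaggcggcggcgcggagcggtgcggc
DSG3: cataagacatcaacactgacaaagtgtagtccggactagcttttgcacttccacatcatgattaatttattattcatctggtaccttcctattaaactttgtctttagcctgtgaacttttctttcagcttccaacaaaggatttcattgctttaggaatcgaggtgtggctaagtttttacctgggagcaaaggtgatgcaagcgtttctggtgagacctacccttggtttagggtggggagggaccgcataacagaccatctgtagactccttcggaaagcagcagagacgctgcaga

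The DSG2 window holds 76.7% G and C and 36 CpG pairs, and the DSG3 window 44.0% and 6, against medians of 58.7% and 14 over 35116 promoters of the same length. The motifs were searched on both strands. GGGCGG occurs 2 times in DSG2 and not in DSG3, and in 45% of all promoters. CACCTG occurs 2 times in DSG2 and not in DSG3, and in 20.6% of all promoters. Neither window holds CCAAT or TATAAA, which 34.6% and 11.5% of all promoters hold. GGGCGG also occurs in windows of DSP and PKP4, which were lower on the anti-miR array, and of JUP, PKP1 and DSC2, which were not. CACCTG also occurs in windows of DSP, JUP and DSC2. A link between these sequences and the differences was not tested. The matches describe the sequence and say nothing on whether a factor binds.

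The armadillo proteins of the plaque are plakoglobin and the plakophilins. JUP, plakoglobin, which is shared with adherens junctions, had 8.12 on the anti-miR array, against 7.86 on the control array at its 1 probe set, above the nonspecific range on both. Its difference of 0.26 lay 0.13 above the median gene and within 1.5-fold.

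The plakophilins split by member. PKP4, also called p0071, is the most divergent of them and is found at adherens junctions and in dividing cells as well as at desmosomes. Its 4 probe sets had 4.78, 5.11, 4.86 and 3.59 on the anti-miR array, against 5.50, 6.75, 6.17 and 5.37 on the control array. All were lower on the anti-miR array, by 1.65-fold to 3.43-fold. The probe set with the largest decrease lay below the anti-miR median and was kept through its control value alone, so the filter favoured a decrease there. The gene value of PKP4 was 4.58 on the anti-miR array, against 5.95 on the control array, which differ by -1.36 ± 0.47 in log2 (SD over 4 probe sets), or 2.57-fold lower. PKP4 had the largest decrease of the 9 measured members and ranked 410 of 11272 genes. Every one of its values lay within the nonspecific range, so the fold is not an exact size. Probe sets ending in _s_at or _x_at can also pair with transcripts of other genes. The 1 PKP4 probe set of another kind differed by -0.72, a smaller decrease that is still past 1.5-fold.

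PKP2, the broadly expressed plakophilin that is also the one of heart muscle, had 5.81 and 6.55 on the anti-miR array, against 6.46 and 7.11 on the control array. Both probe sets were lower on the anti-miR array, and the gene value differed by -0.60 ± 0.07 (SD over 2 probe sets), or 1.52-fold lower. PKP2 thus lay just past the threshold, and its brighter probe set alone, at -0.55, was short of it. On the anti-miR array both values lay within the nonspecific range.

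PKP3, a plakophilin of nearly all epithelial desmosomes, was on the other side of 0. It had 8.39 and 5.48 on the anti-miR array, against 7.91 and 5.20 on the control array. The gene difference was 0.38 ± 0.14 (SD over 2 probe sets), within 1.5-fold and close to the upper quartile of all genes, 0.33. The brighter probe set lay above the nonspecific range on both arrays and differed by 0.48.

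PKP1, the plakophilin of the suprabasal layers of stratified epithelia, was the 1 member counted as higher. Its retained probe set had 5.06 on the anti-miR array, against 4.22 on the control array, 1.79-fold higher. The other 2 probe sets of PKP1, left out as dim, had 3.43 and 4.45 on the anti-miR array, against 3.33 and 4.09 on the control array. All 3 were higher on the anti-miR array, but with the dim ones included PKP1 differed by 0.44, short of 1.5-fold. No PKP1 value was above the nonspecific range. The filter kept this probe set through its anti-miR value alone, since its control value is below the median, so a difference of some size was a condition for its being measured.

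The probe sets of PKP4 (-1.78 to -0.72) and of PKP2 (-0.65 to -0.55) did not overlap those of PKP3 (0.28 to 0.48). The gene differences lay 1.74 apart for PKP4 and PKP3 and 0.98 apart for PKP2 and PKP3. These distances exceed the pooled spread between probe sets, 0.29, but differences over all measured genes also spread more widely than that, with an SD of 0.58. How often other pairs of genes lie as far apart was not counted. The distances could not be compared with a spread between cultures.

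DSP, desmoplakin, is the plakin that joins the plaque to keratin. Its 2 probe sets had 7.60 and 9.23 on the anti-miR array, against 8.10 and 9.53 on the control array. Both were lower on the anti-miR array and above the nonspecific range on each. The gene value of DSP differed by -0.40 ± 0.14 (SD over 2 probe sets), 1.32-fold lower and short of the threshold. Measured from the median gene the distance of DSP was -0.53, still within 1.5-fold.

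**Figure D3:**
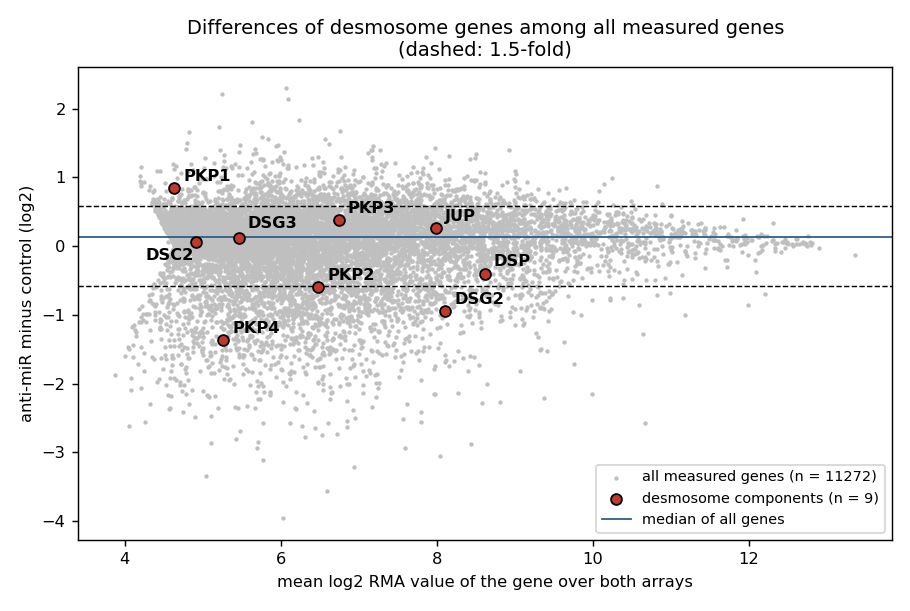
Difference of each measured gene, anti-miR minus control on the log2 scale, against its mean log2 value over both arrays, with all 11272 genes in grey and the 9 measured desmosome genes in red. Dashed lines mark 1.5-fold and the blue line the median of all genes, 0.13. PKP4, DSG2 and PKP2 lie below the lower dashed line and PKP1 above the upper one, among many other genes.

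Other desmosomal genes and the partners of desmosomes were described through lists of related genes. In the list of other desmosomal and cornified junction genes, 3 of 7 genes were measured. Of these, 0 were past 1.5-fold in either direction, against 14.2% lower and 8.23% higher over all measured genes. With 3 genes this count is a description. The list median was -0.02. That median was -0.56 with the filters at the 75th percentile and at the highest nonspecific control, which left 2 genes. PERP, a tetraspan membrane protein of desmosomes, differed by 0.07 ± 0.26 (SD over 3 probe sets). EVPL, the plakin envoplakin, differed by -0.02. PPL, the plakin periplakin, differed by -0.55, but its retained probe sets disagreed, at 0.23 and -1.33. The PPL probe set at 0.23 was dim and was kept through its anti-miR value alone. The brighter one, at -1.33, had 6.77 on the anti-miR array, against 8.10 on the control array. PPL probe sets left out as dim differed by -0.68 and 0.002. That PPL lay within 1.5-fold thus depends on the filter and the averaging. CDSN, corneodesmosin, was dim, at 3.57 on the anti-miR array, against 3.64 on the control array, and was not measured.

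Of the 14 keratins listed, which include those that desmoplakin anchors, 8 were measured and 0 were past 1.5-fold. Over all measured genes 14.2% were lower and 8.23% higher by that fold, so with 8 genes this count is a description. The keratin median was -0.09, with a range from -0.48 (KRT80) to 0.24 (KRT7). KRT5, a keratin of basal squamous cells, had a value of 8.89 on the anti-miR array, against 9.08 on the control array. KRT8 and KRT18, the pair of simple epithelia, differed by -0.11 ± 0.04 (SD over 8 probe sets) and -0.20 ± 0.01 (SD over 2 probe sets). All of these probe sets end in _x_at, a kind that can also pair with transcripts of other genes. Without this kind the keratin median was 0.01, over 6 genes.

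In the hemidesmosome, which ties keratin to the basement membrane, 2 of 6 measured genes were lower by 1.5-fold or more and 0 were higher (14.2% and 8.23% of all measured genes), with a median of -0.27. ITGA6, the integrin α6 chain, was 3.46-fold lower, at 7.07 on the anti-miR array, against 8.86 on the control array (-1.79 ± 0.22, SD over 3 probe sets). The anti-miR gene value of ITGA6 lay just below the nonspecific upper end of 7.16, so the fold is not an exact size, while the brightest probe set, above that end on both arrays, differed by -1.57. DST, the plakin dystonin, was 1.54-fold lower, and its retained probe sets ran from -1.20 to 0.48. The DST differences of -1.10 and -0.70 were kept through control values alone, and that of 0.48 through its anti-miR value alone. The filter favoured the direction seen at each of these. DST probe sets left out as dim differed by 0.10. The gene values of DST lay within the nonspecific range on both arrays, and its 1 probe set above that range on both differed by -0.36, short of 1.5-fold. ITGB4, the partner chain of ITGA6, differed by -0.16 ± 0.13 (SD over 7 probe sets).

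In the adherens junction list, 4 of 9 measured genes were lower by 1.5-fold or more and 0 were higher (14.2% and 8.23% of all measured genes), with a median of -0.54. AFDN, afadin, which links nectins to actin, was 3.31-fold lower (-1.73 ± 0.76, SD over 3 probe sets). The retained AFDN probe set at -0.86 passed the filter through its control value alone, and the others retained end in _s_at. The AFDN probe sets left out as dim differed by -0.09 to -0.01. CTNND1, p120-catenin, an armadillo protein related to the plakophilins, was 2.45-fold lower, at 6.12 on the anti-miR array, against 7.41 on the control array. Its probe sets left out as dim differed by -0.22 to 0.02. The gene value of AFDN lay within the nonspecific range on both arrays, and that of CTNND1 on the anti-miR array alone. CTNNA1, α-catenin, was 1.94-fold lower, with 8.06 on the anti-miR array, against 9.01 on the control array (-0.95 ± 0.15, SD over 6 probe sets). CTNNB1, β-catenin, the closest relative of plakoglobin, differed by 0.04 ± 0.05 (SD over 8 probe sets). CDH1, E-cadherin, differed by -0.54 (1 probe set). With dim probe sets kept, the median of this list was -0.18.

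Of 12 genes linked to desmosome assembly or turnover, 9 were measured. Among these 4 were at least 1.5-fold lower and 0 higher, against 14.2% and 8.23% of all measured genes. The list median was -0.58, and it was -0.29 with dim probe sets kept or with the brightest probe set per gene, and -0.93 with a filter at the 75th percentile (6 genes). PRKCA, a protein kinase C isoform that weakens desmosomal adhesion when active, was 2.80-fold lower, at 4.26 on the anti-miR array, against 5.75 on the control array. EGFR, the epidermal growth factor receptor, was 2.78-fold lower, and its retained probe sets ran from -2.27 to -0.27. The EGFR differences of -2.27 and -1.16, and the PRKCA difference of -1.26, were kept through control values alone. There the filter favoured a decrease. The brightest probe set passed on both arrays for each gene, and differed by -2.14 for EGFR and -1.70 for PRKCA. Left out as dim were EGFR probe sets that differed by -0.11 to -0.0035 and a PRKCA probe set that differed by -0.28. ADAM10, a membrane-bound protease, was 1.97-fold lower, at 3.79 on the anti-miR array, against 4.77 on the control array. Its 3 retained probe sets passed the filter through the control array alone, so a decrease was a condition for ADAM10 being measured. The gene values of PRKCA, EGFR and ADAM10 lay within the nonspecific range on both arrays, so these folds are not exact sizes. GRHL1, a transcription factor that acts on DSG1, differed by 0.15 (1 probe set), and its paralogue GRHL2 by -0.58 ± 0.26 (SD over 3 probe sets), just short of 1.5-fold. The GRHL2 difference of -0.29 was kept through its control value alone. GRHL2 probe sets left out as dim went the other way, at 0.17 and 0.30.

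**Figure D4:**
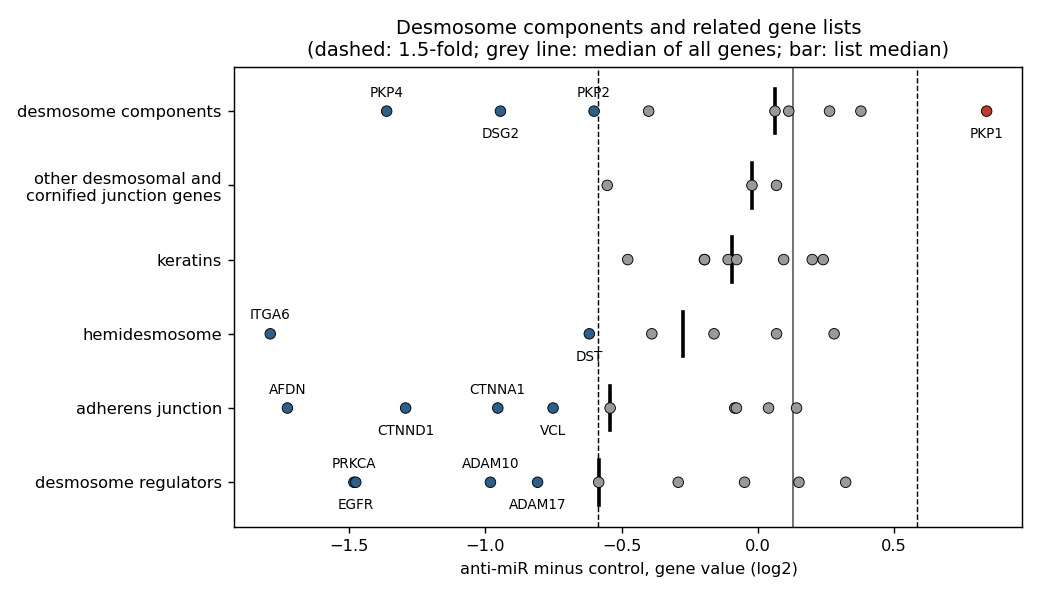
Difference of each measured gene in 6 lists (rows), anti-miR minus control on the log2 scale, with blue points for genes at least 1.5-fold lower, the red point for the gene at least 1.5-fold higher, and grey points for the others. Black bars are list medians, the grey line is the median of all measured genes (0.13) and dashed lines mark 1.5-fold. The desmosome row spans -1.36 to 0.84, and PKP1 is the single red point in the plot.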

How the data were processed

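RNA from GFP-SAS cells was labelled from 10 ng with biotin and hybridised to Affymetrix 3' expression arrays, 1 per group, per the labels' protocols. The deposited values are log2 values per probe set made by the authors with RMA, per the submitters' processing notes. For the RMA version, the set of arrays normalized together and the genome build, nothing is stated (not given in the sources used here). Precision is limited by the number of arrays, and there were no detection calls.

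Of 49386 probe sets, 93 were array controls. The platform annotation gave 45253 other probe sets 1 symbol, and symbols were updated for the 45172 whose Entrez ID is in the RefSeq table (GRCh38.p14). All 10 members matched. The median filter left 24127 probe sets and 11272 genes. Genes were counted at 1.5-fold, with no test. All members were named, and from each related list up to 3 genes past 1.5-fold, plus DSG1, DSC1, DSG4, PERP and CDSN. Other list members named (EVPL, PPL, KRT5, KRT7, KRT8, KRT18, KRT80, ITGB4, CTNNB1, CDH1, GRHL1, GRHL2, and VCL and ADAM17 in the plot of lists) and the promoters shown were chosen after their values were seen. Members and lists were chosen with earlier results of these data known.

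The RefSeq promoter table held 8 of the 10 members. Alternatives changed the filter, the gene value, the scaling, the kind of probe set and the fold (sensitivity below). The counting step was tested on simulated data. Software was statsmodels 0.14.6 (lowess, fraction 0.3), pandas 2.3.3, numpy 2.4.6 and matplotlib 3.10.9 under Python 3.11.15.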

Additional observations from a re-analysis of the deposited data

How the results depend on the processing

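No paired analysis was possible because there is 1 array per group, and for the same reason none could be left out. Against 1 member at least 1.5-fold higher, the count was 0 with no filter, with a filter at the 75th percentile, with a filter at the highest nonspecific control and at 2-fold. Over all genes 4.40%, 12.2%, 11.0% and 1.23% were higher under these settings, in that order. Against 3 members lower, the count was 1 with the nonspecific filter (DSG2, with 5 members measured) and 1 at 2-fold (PKP4), where 20.1% and 6.98% of all genes were lower. The median over members, 0.06, was -0.48 with the 75th percentile filter (6 members) and -0.40 with the nonspecific filter (5 members), since both leave out the dim members. Centring on the median gene gave -0.07 and a lowess trend -0.08. The other settings kept these counts within 1.5 times and the median within the spread between probe sets. PKP2 was past 1.5-fold in 7 of 10 settings (-0.73 to -0.55), PKP1 in 7 of the 8 in which it was measured (0.44 to 0.84) and PKP4 in all 9 (-1.64 to -0.72). The 7 settings for PKP1 all rest on its 1 retained probe set, so they are not separate checks. With no filter, which brought in its other probe sets, PKP1 differed by 0.44. No member past 1.5-fold changed sign. Depth here means signal over background, which limits all values of PKP1, PKP4, DSG3, DSC2 and DSC3.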
